A study of Caenorhabditis elegans with 10 samples.

Results

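The deposited comparison of sorted Caenorhabditis elegans cells lists 288 pseudogenes of the nematode chemoreceptor families among 46272 genes. They were taken by name and biotype: a family name from sra to str followed by a number, and the biotype pseudogene in the authors' deposited table. The cells were from untreated worms of the wild-type genotype grown on standard plates. YFP-labelled ASH neurons sorted by fluorescence made up 5 libraries, called ASH here, and cells without YFP from the same kind of sort made up the other 5, called non-ASH. All 10 libraries were strand-specific and made from poly(A)-selected RNA. ASH is a pair of head sensory neurons that detect osmotic shock, touch and repellents, and the comparison asked which transcripts were enriched in them. The promoter that drives YFP and the stage of the worms are not stated in the labels. The labels do not say whether libraries of a group had separate cultures, so the p-values may measure a technical spread only.

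Chemoreceptor genes encode serpentine G protein-coupled receptors that sensory neurons place in their cilia to detect chemicals. The families grew by repeated local duplication, lie largely in clusters on chromosome V, and include many copies that carry stop codons, frameshifts or missing exons in the reference strain and are annotated as pseudogenes. Such a copy may still be transcribed, and some copies that are broken in the reference strain are intact in other wild isolates. Members of the srh, str, sri, srj and srd families form the Str superfamily. The srg, srt, sru, srv, srx and srxa families form the Srg superfamily, and sra, srab, srb and sre form the Sra superfamily. The srw, srz, srbc and srsx families stand alone.

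The authors' deposited table holds 1 value per group, in FPKM (fragments scaled by transcript length and library size), so the levels below have no standard deviation and no n. It also lists log2 fold changes, ASH over non-ASH, from DESeq2, a test on read counts, and from Cuffdiff, a test on FPKM. A gene is called higher or lower in ASH here at a DESeq2 adjusted p under 0.05. The depth of the libraries is unknown. Of 10 genes typical of ASH, 9 were higher and 0 lower in ASH, and in the authors' deposited table their levels summed to 805 FPKM in ASH against 119 in non-ASH. The tenth, eat-4, had an adjusted p of 0.0654. Of 12 genes typical of other sensory neurons, 10 had an adjusted p and 0 were called by DESeq2 or Cuffdiff in either direction, with 0 at an unadjusted DESeq2 p under 0.05, and their summed level was 119 FPKM in ASH and 120 in non-ASH. The neuropeptide gene flp-6 made up most of that sum, at 109.9 FPKM in ASH against 102.9 in non-ASH, and the other 11 summed to 8.99 FPKM in ASH against 17.3 in non-ASH. The median DESeq2 log2 fold change of the 10 was -0.67 in the authors' deposited table. Markers of other tissues differed as well in the authors' deposited table: 3 of 5 intestine genes were higher, with a sum of 5908 FPKM in ASH and 1402 in non-ASH, and 1 of 4 body wall muscle genes was higher, with 710 FPKM in ASH against 441 in non-ASH. That muscle gene, unc-54, was at 403 FPKM in ASH against 151 in non-ASH. The other 3 muscle genes summed to 307 FPKM in ASH against 290 in non-ASH. The median DESeq2 log2 fold change of the 4 muscle genes was -0.07. Of the pharynx genes 3 of 4 were lower, with 21.2 FPKM in ASH against 389 in non-ASH, 3 of 3 glia genes were lower, with 36.3 FPKM in ASH against 155 in non-ASH, and 0 of 4 germline and sperm genes were called by DESeq2, with 2 lower at an unadjusted p under 0.05 and 1 lower by Cuffdiff. The part of these tissues in the pseudogene results was not tested. In sorted fractions, fewer cells of a type and less RNA per cell cannot be told apart.

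Most of the pseudogenes were at or near 0 in both fractions, and those with appreciable RNA had it mainly in ASH. Of the 288 members, 100 (34.7%) were listed at 0 FPKM in both groups. A level of 1 FPKM or more was reached by 23 members (7.99%) in ASH and by 2 members (0.694%) in non-ASH. Over all 46272 genes listed, 28% reached it in ASH and 29.3% in non-ASH. The same level was reached by 12.5% of the 1340 protein-coding genes of these families in ASH and by 2.16% of them in non-ASH. Among the 1160 pseudogenes outside these families it was reached by 19.2% in ASH and 20% in non-ASH. Summed over all 288 members, the authors' FPKM came to 200.0 in ASH and 22.1 in non-ASH, a ratio of 9.05.

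DESeq2 called 16 members higher in ASH and 0 lower. These 16 are 5.56% of all 288 members. The same share was 7.16% of the protein-coding genes of these families, with 96 higher, and 0.776% of the other pseudogenes, with 9 higher. It was 4.01% of the protein-coding genes outside these families and 1.93% of all 46272 genes listed. An adjusted p was listed for 32 members, of which the 16 are 50%, while 5.32% of all 16802 genes with an adjusted p were higher and 4.44% were lower. That denominator is not neutral: a member near 0 in non-ASH received an adjusted p only if it had reads in ASH, so the share of 50% was partly set by which members could be tested. At an unadjusted DESeq2 p under 0.05, 1 of the 32 was lower, srd-14, and Cuffdiff called 0 members lower. All 16 reached at least 2.29 FPKM in ASH, and none of them exceeded 0.291 FPKM in non-ASH. They held 79.7% of the summed ASH level of the 288 members and 5.07% of the summed non-ASH level. A contrast in this direction follows from choosing members that were higher in ASH.

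**Figure D1:**
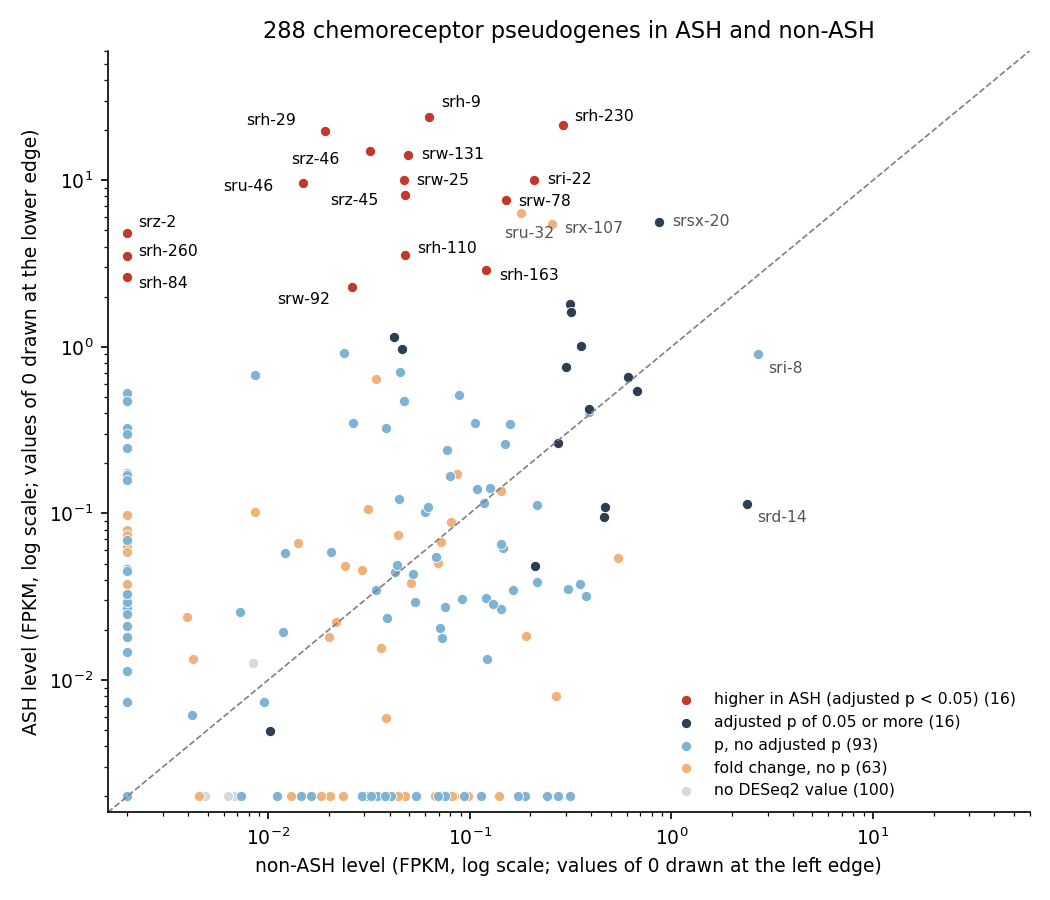
Level of each of the 288 chemoreceptor pseudogenes in ASH (vertical axis) and non-ASH (horizontal axis), in FPKM on log axes, with values of 0 drawn at the edges; each point is 1 gene with 1 value per group, and the dashed line marks equal levels. The 16 red points, higher in ASH by DESeq2, lie at 2.29 FPKM or more in ASH and at 0.291 FPKM or less in non-ASH, and sri-8 and srd-14 stand apart on the non-ASH side.

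The srh family, the family with the most pseudogenes, supplied 7 of the 16. The pseudogene srh-29 (WBGene00005252) stood at 19.8 FPKM in ASH against 0.0192 in non-ASH, and its log2 fold change of 7.90 (adjusted p = 8.2e-15) was the largest DESeq2 value of the 288 in the authors' deposited table. A higher ASH level was listed for srh-9, with 23.9 FPKM in ASH against 0.0628 in non-ASH, where the authors' deposited table gave a DESeq2 log2 fold change equal to 4.21 (adjusted p = 0.00276). The FPKM values of srh-9 differ 380-fold without the authors' added 1, whereas its DESeq2 fold change corresponds to 18.5-fold. Cuffdiff's own log2 fold change for srh-9, which holds the added 1, was 4.55 in the authors' deposited table, and srh-9 was the 1 higher member for which it exceeded that of DESeq2. The pseudogene srh-230 was at 21.3 FPKM in ASH against 0.291 in non-ASH. The authors' deposited table lists a DESeq2 log2 fold change of 4.65 for it (adjusted p = 6.19e-05). These 3 members were above 19 FPKM in ASH, well over the median of 6.41 FPKM of all genes with an adjusted p.

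The other 4 srh pseudogenes were less abundant in ASH. For srh-260 and srh-84 the authors' deposited table lists 3.52 and 2.62 FPKM in ASH against 0 in non-ASH, so no ratio can be formed, and the DESeq2 log2 fold changes were 7.19 (adjusted p = 6.08e-10) and 6.83 (adjusted p = 1.58e-08). The member srh-110 had 3.55 FPKM in ASH against 0.0477 in non-ASH. The authors' deposited table lists a DESeq2 log2 fold change of 4.39 for it (adjusted p = 0.000699). Closest to the threshold on its inner side was srh-163, at 2.91 FPKM in ASH against 0.121 in non-ASH, and the authors' deposited table gave a DESeq2 log2 fold change equal to 3.14 (adjusted p = 0.0346). Just outside it came srh-101, at 1.15 FPKM in ASH against 0.042 in non-ASH, and the authors' deposited table gave a DESeq2 log2 fold change equal to 2.73 (adjusted p = 0.0829). Among 70 srh pseudogenes 11 had an adjusted p, and 10 of those fold changes were positive. Of the 222 protein-coding srh genes 42 had an adjusted p and 21 were higher.

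The srw family, a stand-alone group, had 4 higher members among 31 pseudogenes, of which 6 had an adjusted p. The pseudogene srw-131 was at 14.3 FPKM in ASH against 0.0496 in non-ASH. The authors' deposited table lists a DESeq2 log2 fold change of 6.99 for it (adjusted p = 3.36e-10). For srw-25 the levels were 9.99 FPKM in ASH against 0.0471 in non-ASH, and the authors' deposited table gave a DESeq2 log2 fold change equal to 5.08 (adjusted p = 7.4e-05). The member srw-78 had 7.66 FPKM in ASH against 0.151 in non-ASH, and the authors' deposited table put its DESeq2 log2 fold change at 5.37 (adjusted p = 2.32e-06). All 3 lie above the median ASH level of the genes tested. Lower in level was srw-92, at 2.29 FPKM in ASH against 0.0261 in non-ASH, and the authors' deposited table gave a DESeq2 log2 fold change equal to 5.22 (adjusted p = 5.52e-06). The protein-coding srw genes had 13 higher of 20 with an adjusted p.

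In the srz family, a stand-alone group, the genes called higher were pseudogenes. All 3 srz pseudogenes with an adjusted p were higher, out of 37 listed, while 0 of 68 protein-coding srz genes were called higher by DESeq2 and 2 of those had an adjusted p. At an unadjusted p under 0.05, 1 of the protein-coding srz genes was higher, and Cuffdiff called 0. The difference between the srz pseudogenes and the protein-coding srz genes was not tested. The largest level belonged to srz-46, at 14.9 FPKM in ASH against 0.032 in non-ASH. The authors' deposited table lists a DESeq2 log2 fold change of 6.87 for it (adjusted p = 2.26e-10). Next was srz-45, at 8.20 FPKM in ASH against 0.0479 in non-ASH, and the authors' deposited table put its DESeq2 log2 fold change at 4.99 (adjusted p = 0.000132). The third, srz-2, was listed at 4.81 FPKM in ASH against 0 in non-ASH, and the authors' deposited table gave a DESeq2 log2 fold change equal to 6.61 (adjusted p = 5.65e-08). The remaining srz pseudogenes had no adjusted p, and 14 of the 37 were at 0 in both groups.

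One pseudogene each of the sri and sru families completed the 16. The member sri-22 was at 10.03 FPKM in ASH against 0.209 in non-ASH. The authors' deposited table lists a DESeq2 log2 fold change of 4.71 for it (adjusted p = 0.000119). For sru-46 the authors' deposited table lists 9.64 FPKM in ASH against 0.0148 in non-ASH, and a DESeq2 log2 fold change of 6.73 (adjusted p = 6.35e-09). The FPKM ratio of sru-46, 650-fold, was second to that of srh-29, 1034-fold, among the 20 members with at least 1 FPKM in ASH and a non-ASH level above 0.

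**Figure D2:**
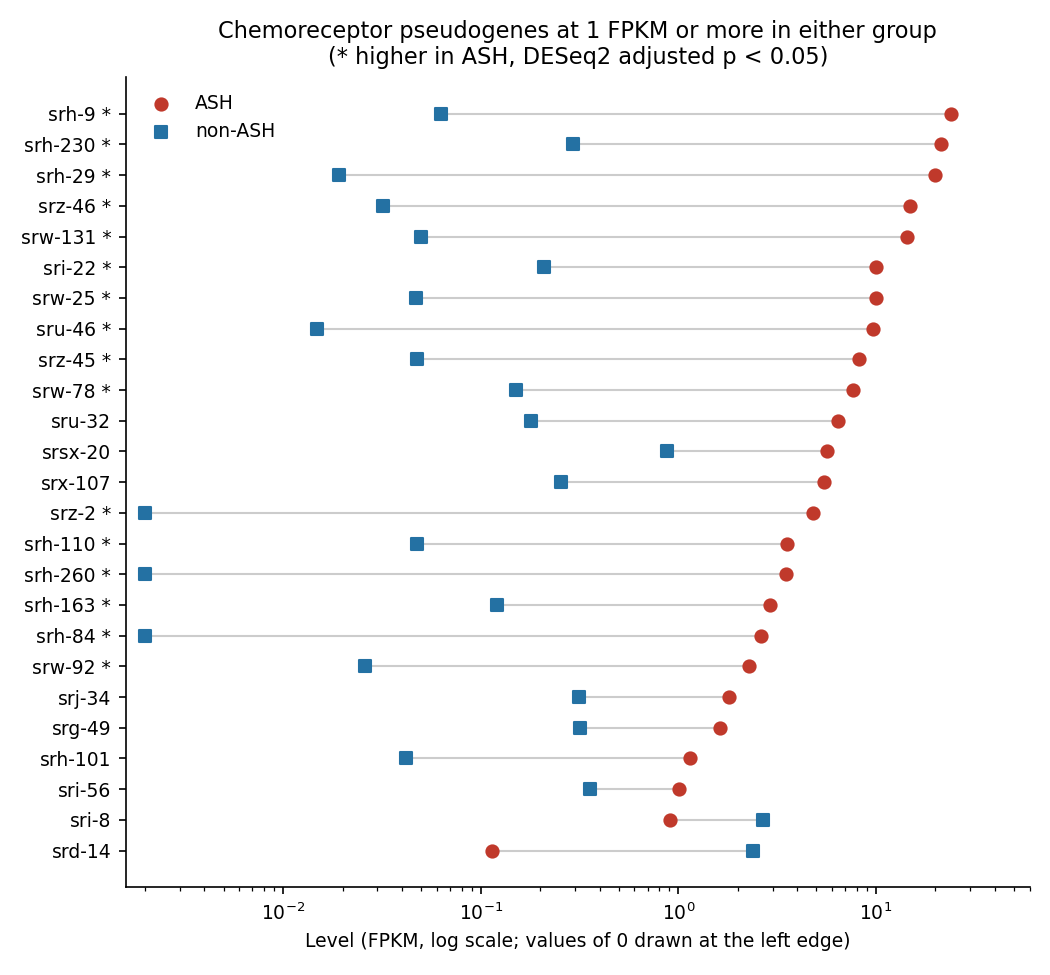
Levels of the 25 chemoreceptor pseudogenes with at least 1 FPKM in either group, in ASH (red circles) and non-ASH (blue squares), in FPKM on a log axis with values of 0 drawn at the left edge; there is 1 value per group, so no error is shown. In 23 of them the ASH level is the higher one, sri-8 and srd-14 are the exceptions, and asterisks mark the 16 that DESeq2 called higher in ASH.

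Families differed in how much pseudogene RNA was seen. The 5 families with a higher pseudogene were srh, srw, srz, sri and sru, and 14 of the 16 came from srh, srw and srz, which hold 138 of the 288 members. The 7 other families with a tested pseudogene, among them srx, had 8 tested members and 0 higher by DESeq2. At an unadjusted p under 0.05, 1 of these 8 was higher and 1 lower, and Cuffdiff called 1 higher, srj-34. In the srx family 2 of 32 pseudogenes had an adjusted p and neither was called, whereas 14 of 32 tested protein-coding srx genes were higher. A further 7 families, with 60 pseudogenes, had none with an adjusted p. The str family is the largest of these, and its 30 pseudogenes reached at most 0.0658 FPKM in ASH against 0.541 in non-ASH, while 4 of 36 tested protein-coding str genes were higher. By superfamily, the pseudogenes higher in ASH were 8 of 130 in Str, 7 of 83 in the stand-alone families, 1 of 61 in Srg and 0 of 14 in Sra, all by DESeq2. An adjusted p was listed for 15 in Str, 10 in the stand-alone families, 6 in Srg and 1 in Sra. In Srg, sru-32 and srx-107 had no p and could not be called, at 6.40 and 5.43 FPKM in ASH against 0.179 and 0.255 in non-ASH. With 1 tested pseudogene, Sra cannot be compared with the others by these calls. Cuffdiff called no Sra pseudogene either, and no Sra pseudogene had an unadjusted DESeq2 p under 0.05.

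**Figure D3:**
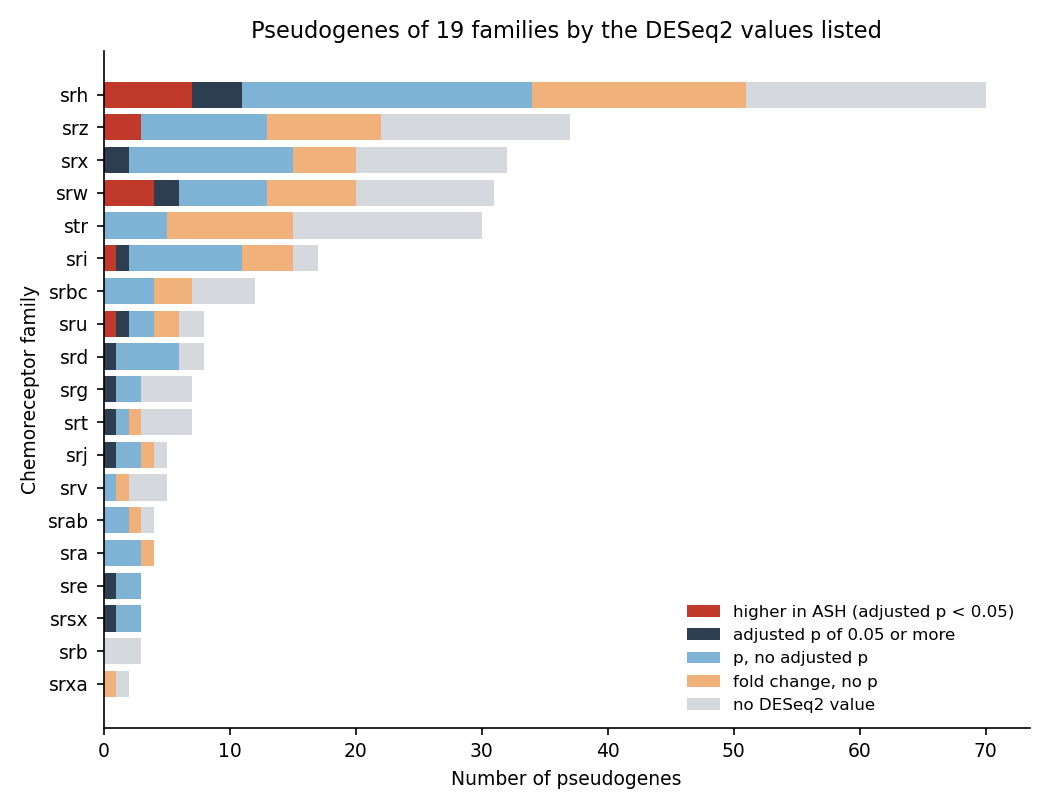
Number of chemoreceptor pseudogenes in each of 19 families, divided by what DESeq2 gave for them in the authors' deposited table. Red segments, the members higher in ASH, appear in srh (7), srw (4), srz (3), sri (1) and sru (1), and grey segments are members with no DESeq2 value.

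The 16 members that had an adjusted p and were not called ran in both directions. Their fold changes were positive for 10 and negative for 6, between -1.77 and 2.73 on the log2 scale in the authors' deposited table. The pseudogene srd-14, of a family in the Str superfamily, was listed at 0.114 FPKM in ASH against 2.38 in non-ASH, and DESeq2 put its log2 fold change at -1.77 (adjusted p = 0.0843) in the authors' deposited table. It and sri-8 were the 2 members at 1 FPKM or more in non-ASH. For sri-8 the authors' deposited table gives 0.903 FPKM in ASH against 2.69 in non-ASH but a positive DESeq2 log2 fold change of 0.61 (p = 0.484, without an adjusted p), so the tools differ in direction. Such opposite signs were found in 12 of 182 members with unequal FPKM and a DESeq2 fold change, and in 1 of the 32 with an adjusted p. For the pseudogene srsx-20 the authors' deposited table gives 5.63 FPKM in ASH against 0.872 in non-ASH, and a DESeq2 log2 fold change at 1.43 (adjusted p = 0.307). The members srg-49, sri-56 and srj-34 were at 1.62, 1.01 and 1.80 FPKM in ASH and at 0.319, 0.356 and 0.313 FPKM in non-ASH, and the authors' deposited table gives them DESeq2 log2 fold changes of 1.69, 1.17 and 2.43, with adjusted p at 0.264, 0.43 and 0.0996.

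Cuffdiff called far fewer of the pseudogenes. At a Cuffdiff q under 0.05, 5 of the 288 members were higher in ASH, against 614 (1.33%) of all 46246 genes with a q. These 2 shares are of similar size. Both tools called 3 of the 32 members with a DESeq2 adjusted p, against 397 (2.36%) of all 16802 genes with one. The 3 were srh-260, srh-84 and srz-2. These are the 3 higher members that the authors' deposited table lists at 0 in non-ASH, and each had q = 0.00101, the smallest q in that table. The 13 other higher members had Cuffdiff q between 0.206 and 0.514, although their ASH levels were 2.29 to 23.9 FPKM and their non-ASH levels 0.0148 to 0.291 FPKM. The same split was present in the protein-coding genes of these families, where Cuffdiff called 13 of the 13 genes that DESeq2 called higher with non-ASH at 0, and 5 of the 83 with non-ASH above 0. Among the other protein-coding genes that DESeq2 called higher, Cuffdiff called 4 of 4 with non-ASH at 0 and 367 of 759 with non-ASH above 0. The 2 members called by Cuffdiff alone were srj-34 (q = 0.0142) and sru-14, which was listed at 0.528 FPKM in ASH against 0 in non-ASH with q = 0.00101 in the authors' deposited table.

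**Figure D4:**
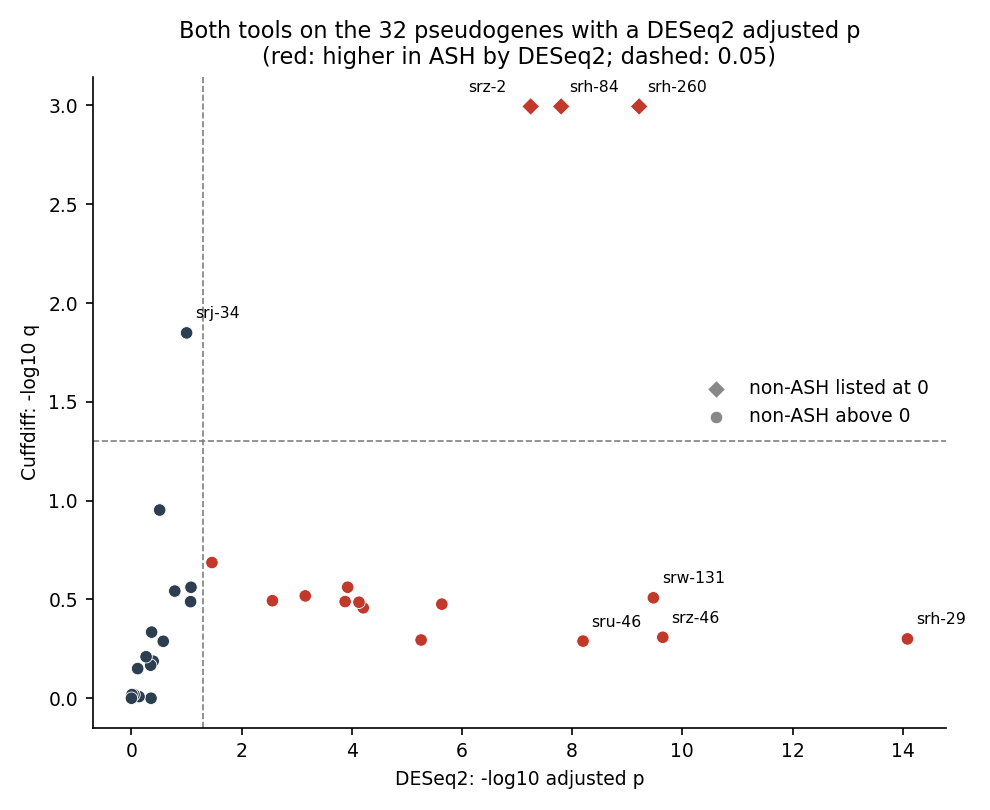
Cuffdiff q (vertical axis) against DESeq2 adjusted p (horizontal axis), both as -log10, for the 32 chemoreceptor pseudogenes with a DESeq2 adjusted p; each point is 1 gene, dashed lines mark 0.05, and red points are higher in ASH by DESeq2. The 3 diamonds, with non-ASH listed at 0, pass both thresholds, and the 13 red circles pass that of DESeq2 only.

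The 256 members without an adjusted p comprised 3 kinds. For 93 a p was given without an adjusted p, 41 of them with a positive fold change, and 4 had a p under 0.05: srh-85, srh-267, sru-14 and srh-90, all with positive fold changes. The largest of these was srh-85, at 0.682 FPKM in ASH against 0.00863 in non-ASH. The authors' deposited table lists a DESeq2 log2 fold change of 4.0 for it (p = 0.000196, unadjusted). For 63 members a fold change was given without a p, and 100 had no DESeq2 value, of which 94 were also listed at 0 FPKM in both groups. In its default settings DESeq2 leaves the p blank where a library holds an extreme count and the adjusted p blank where the mean count is low, and the settings the authors chose are not stated in the labels.

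A fold change without a p was more frequent among the chemoreceptor pseudogenes than among genes in general. It was found for 63 of the 188 members with a fold change (33.5%), for 22.5% of the protein-coding genes of these families, for 14.1% of the other pseudogenes and for 7.11% of all genes. Level moved with this share: where the higher of the group levels was above 0 and at most 0.05 FPKM, it was 45.8% of 59 members and 37% of 473 protein-coding genes outside the families. Above 5 FPKM it was 2 of 13 members, against 0.589% of 9685 such protein-coding genes. Those 2 were sru-32, at 6.40 FPKM in ASH against 0.179 in non-ASH and a DESeq2 log2 fold change at 2.88, and srx-107, at 5.43 FPKM in ASH against 0.255 in non-ASH and 3.06, in the authors' deposited table. Cuffdiff called neither (q = 0.169 for sru-32 and 0.253 for srx-107). Thus of the 13 members at 5 FPKM or more in ASH, 10 were higher by DESeq2, 2 had no p, and srsx-20 had an adjusted p that missed the threshold.

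**Figure D5:**
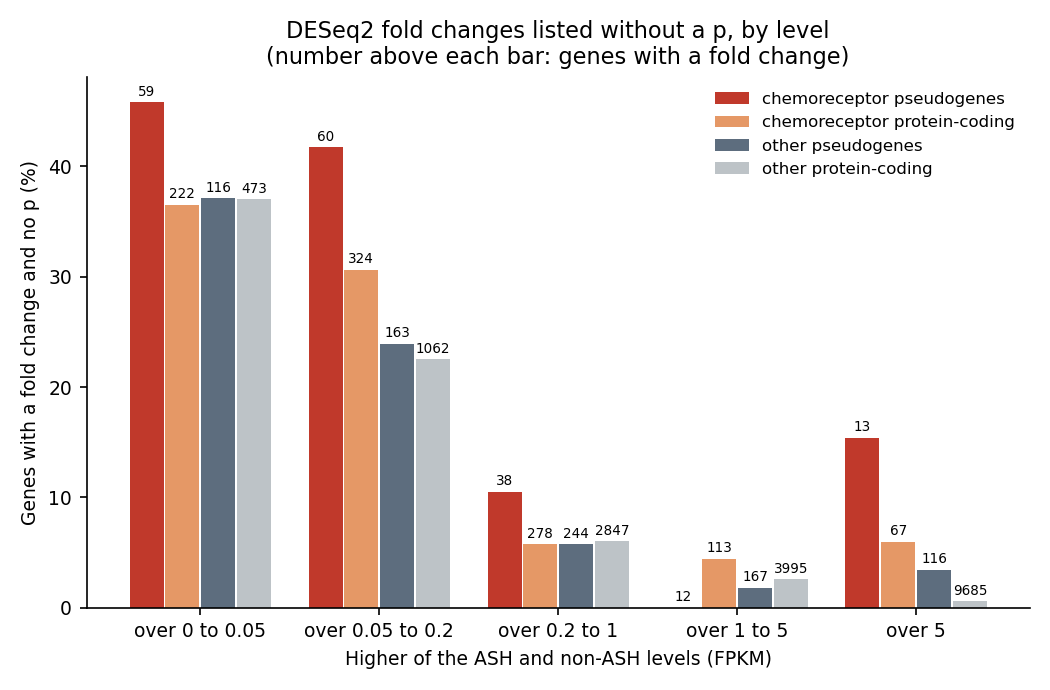
Share of genes with a DESeq2 fold change but no p (vertical axis, in percent) by the higher of the ASH and non-ASH levels (horizontal axis, in FPKM), for 4 classes of gene; the number above each bar is the number of genes with a fold change. The share is 45.8% for chemoreceptor pseudogenes up to 0.05 FPKM, and the bar above 5 FPKM stands for 2 of 13 members.

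Several of the higher pseudogenes lay beside protein-coding chemoreceptor genes that were also higher in ASH. Gene order was taken from the WBcel235 annotation, counting protein-coding genes and pseudogenes, and no coordinates are given because the build of the authors' files was not named. On chromosome V, by the chromosome the authors' deposited table gives for the flanking genes, srh-29 is adjacent to srh-28, which was at 11.2 FPKM in ASH against 0.211 in non-ASH and had a DESeq2 log2 fold change at 4.51 (adjusted p = 0.000104). The gene srh-30, 3 places from srh-29, had 9.46 FPKM in ASH against 0.268 in non-ASH, and the authors' deposited table gave a DESeq2 log2 fold change equal to 3.95 (adjusted p = 0.00298). All 3 lie on the same strand in that annotation.

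A run of srw genes on chromosome V holds 2 of the higher pseudogenes. Here srh-84 is adjacent to srw-121, on the other strand, at 13.8 FPKM in ASH against 0.00779 in non-ASH, and lies 2 places from srw-139, at 4.13 FPKM in ASH against 0 in non-ASH. DESeq2, in the authors' deposited table, gave log2 fold changes of 8.18 for srw-121 (adjusted p = 1.77e-15) and 8.11 for srw-139 (adjusted p = 1.24e-15). On its other side srh-84 is adjacent to srh-85, the member with the small unadjusted p. Further along, srw-131 lies between srw-112, at 2.56 FPKM in ASH against 0.00696 in non-ASH and a DESeq2 log2 fold change at 6.59 (adjusted p = 3.78e-08), and srw-136, at 8.40 FPKM in ASH against 0.00354 in non-ASH and 8.08 without a p, all values being those of the authors' deposited table. The srw genes srw-71, srw-69 and srw-68 follow one another beside srw-78, on the other strand. In order, the authors' deposited table gives them DESeq2 log2 fold changes of 3.94 (adjusted p = 0.00178), 5.94 (adjusted p = 1.09e-07) and 3.05 (adjusted p = 0.0468). Next to srh-163 on the same strand is srh-184, at 5.21 FPKM in ASH against 0.174 in non-ASH, and the authors' deposited table put its DESeq2 log2 fold change at 4.13 (adjusted p = 0.000318).

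Counted over the 16 higher members, 8 had at least 1 immediate neighbour that was higher in ASH, and in 5 of these the neighbour was a chemoreceptor gene. A higher immediate neighbour of any kind was found for 2 of the 16 members with an adjusted p that were not called. It was found for 42 of the 96 higher protein-coding genes of these families. Among all genes with a place in the annotation, it was found for 20.2% of the 878 that were higher in ASH. The share was 8.29% of the 16458 such genes with an adjusted p. A higher chemoreceptor neighbour was found for 2 of those 16, 37 of those 96, 5.69% of the 878 and 0.832% of the 16458. These counts are a description, since neighbours count each other. The 3 neighbours outside the families were ttr-10, a transthyretin-related gene beside sri-22, clec-47, a C-type lectin gene beside srw-25, and Y6G8.2 beside srz-45. Of the 8 higher neighbours 3 were on the same strand as the pseudogene and 5 on the other. With 4 neighbours on each side, 9 of the 16 higher members and 8 of the 16 that were not called had a higher neighbour. At that window a higher neighbour was found for 56 of the 96, 40.3% of the 878 and 27.1% of the 16458.

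Other higher pseudogenes stood apart from any such group. For 4 of the 16 no chemoreceptor gene was among the 8 nearest genes. One of the 16, srh-260, overlapped another annotated gene, comt-2, which lies on the other strand and was at 0.0834 FPKM in ASH against 0.0399 in non-ASH, and whether reads were counted by strand is not stated in the labels. The pseudogene srz-2 is adjacent to the protein-coding srz-1, at 0.112 FPKM in ASH against 0 in non-ASH. The neighbour of srh-230 on one side, srh-229, was listed in the authors' deposited table at 1.96 FPKM in ASH against 0.0693 in non-ASH but with a DESeq2 log2 fold change of -0.29 and without an adjusted p. The pseudogene srw-92 is adjacent to another member, srw-93, at 0.968 FPKM in ASH against 0.0462 in non-ASH, and the authors' deposited table put its DESeq2 log2 fold change at 2.29 (adjusted p = 0.163), and the protein-coding genes around the pair are listed on chromosome I. By the biotypes of the authors' deposited table, the nearest protein-coding gene of the same family was itself higher for 4 of the 16. By those biotypes it was more than 4 places away for 8 of them. One of these 8 is srh-84, although the adjacent srh-85 is protein-coding in RefSeq. Among the nearest family genes that were not called, srh-229 had the highest ASH level and srh-136, 3 places from srh-260, came next at 0.169 FPKM in ASH against 0.091 in non-ASH. Reads from near-identical family members may have been assigned to either copy, and the treatment of shared reads in counting is not stated in the labels, so the value of any single member is uncertain.

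The annotation of these genes has moved since. In the RefSeq gene table of assembly WBcel235, 283 of the 288 members are still pseudogenes and 5 are protein-coding: srh-85, srh-146, srw-135, str-35 and sre-10. DESeq2 and Cuffdiff each called 0 of these 5, and 1 of them, srh-85, had an unadjusted p under 0.05. Only 1 of the 5, sre-10, had an adjusted p, so the others could not be called by the DESeq2 rule. Conversely, 37 genes of the families that are protein-coding in the authors' deposited table are pseudogenes in RefSeq. Of these, srh-210, srt-25 and srx-89 had an adjusted p, so the others could not be called by the DESeq2 rule. Only srx-89 was higher, at 2.56 FPKM in ASH against 0 in non-ASH. Its DESeq2 log2 fold change was 4.13 (adjusted p = 0.00316). Over all genes, 5.32% of those with an adjusted p and 1.93% of those listed were higher.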

How the data were processed

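Strand-specific libraries of poly(A)-selected RNA from sorted cells were made, per the labels' protocols, 5 of ASH and 5 of non-ASH, grouped by title. Per the submitters' processing notes the tools were Bowtie2 2.2.1 and TopHat2 2.0.13, Cufflinks with Cuffdiff, HTSeq with DESeq2, and FastQC. The build, annotation, strand setting and model options are not given in the sources used here. One deposited table was used; it has 46273 rows, which gave 46272 genes after 1 repeat was removed. Its group levels are FPKM to which the authors added 1, per the file headers and values, and that 1 was subtracted here. The deposited log2 fold changes are those of Cuffdiff, equal to the log2 ratio of those values, and of DESeq2, and the deposited p-values and q-values are each tool's. Values per library were not analysed here, so the tests foreseen on counts could not be made and only the calls of the authors' tools are used. The design's rule for named genes took members called by either tool, at 1 FPKM or more, the 3 nearest the threshold, and nearest family genes; further genes were chosen after their values were seen. Members and lists were chosen with earlier results of these data known. Members were matched by symbol to RefSeq (288 of 288) and by identifier to Ensembl gene order, both WBcel235. Alternatives were an adjusted p under 0.01, a 2-fold change, Cuffdiff's q, both tools, a floor of 1 FPKM, pseudocounts of 0.1 and 5, RefSeq biotypes and other neighbour windows. Counting and neighbour steps were tested on simulated data. Python 3.11.15, pandas 2.3.3 and matplotlib 3.10.9 were used.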

Additional observations from a re-analysis of the deposited data

How the results depend on the processing

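No paired analysis was possible because the table holds 1 value per group, and leaving out single replicates was not run for the same reason. The 16 pseudogenes called higher became 15 at an adjusted p under 0.01 and stayed at 16 with a change of at least 2-fold, with at least 1 FPKM in either group and without members now protein-coding. The count was 17 over all chemoreceptor genes now pseudogenes in RefSeq, an alternative chosen after seeing the data. With Cuffdiff's q it was 5, and 3 by both tools. The protein-coding genes of these families went the same way, with 27 higher by Cuffdiff's q and 18 by both, against 96, as did the other pseudogenes, with 4 and 3, against 9. The count of lower members was 0 under the rules of 0.01, 2-fold, 1 FPKM, Cuffdiff's q and both tools. The median log2 FPKM ratio over the 32 members with an adjusted p was 1.74 with the authors' added 1. It was 3.45 with a pseudocount of 0.1, 0.57 with a pseudocount of 5 and 2.36 over the 22 members at 1 FPKM or more. The size of the pseudocount sets this value for genes near 0. Over all 288 members the median was 0. A member near 0 in non-ASH received an adjusted p only if it had reads in ASH, so the selection partly set the other medians. Of the 16 higher pseudogenes, 9 had a higher gene among 2 neighbours on each side, against 8 for 1 on each side, and 5 with chemoreceptor neighbours only, both chosen after seeing the data. With 2 on each side, the share was 29.4% of the 878 higher genes and 15.1% of the 16458 genes with an adjusted p. Depth is unknown, so a level of 0 gives no limit on expression.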
